A study of Mus musculus with 6 samples.

Results

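The circadian clock genes Per1, Per2, Per3, Cry1, Cry2, Arntl, Clock, Nr1d1, Nr1d2 and Dbp were followed through 6 RNA sequencing libraries of mouse molar tissue. They were picked by symbol, and all 10 were found among the 25899 genes of the authors' deposited table. The tissue was the apical part of the lower first molar at postnatal day 7.5, from mice of the mixed C57Bl6/129S6/SvEvTac background. The 3 control libraries came from Bmpr1afl/fl mice and the 3 mutant libraries from Gli1-CreER;Bmpr1afl/fl littermates. Both groups thus carried floxed alleles of Bmpr1a, a receptor gene of the BMP pathway, and the Cre driver was in the mutants' genotype alone. CreER works only after tamoxifen and, in this line, in Gli1-expressing cells, so cells outside that lineage keep the receptor. The labels give neither the tamoxifen schedule, nor the hour of dissection, nor the light cycle. They place controls 1 and 2 and mutants 1 and 2 in litter 1, and control 3 and mutant 3 in litter 2. Nothing in them says whether a library holds 1 animal or several, so p-values measure the spread between these 6 libraries.

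The mammalian clock is a feedback loop of transcription that runs in nearly every cell and is set to the time of day by light, feeding, temperature and glucocorticoids. CLOCK and BMAL1, the product of Arntl, form a pair that binds E-box elements and switches on the Per and Cry genes, whose products return to the nucleus and repress that pair. A second loop runs through REV-ERBα and REV-ERBβ (Nr1d1 and Nr1d2), which repress Arntl at ROR elements, while DBP acts on D-box elements of output genes. In adult tissues Arntl peaks at the opposite time of day from Dbp and Nr1d1. Enamel and dentin carry daily growth lines, and clock genes are known to be expressed in the cells of the tooth.

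Depth and labels were checked first. The libraries held 15916045 to 20609420 reads on genes, and values are given as RPM (reads per 1000000 of a library total set by the authors), a unit inferred from steps in the deposited values. Each member was backed by 153 reads (the lowest, Per2) to 1984 reads (the highest, Nr1d2) in a library. Bmpr1a, the floxed gene, was at 121, 139 and 150 RPM in controls 1 to 3 and at 108, 120 and 111 RPM in mutants 1 to 3, all 3 mutants below all 3 controls (log2 difference -0.27, 95% interval -0.59 to 0.06). A whole-gene value also counts exons that Cre leaves in place, and cells in which Cre was never active. Markers of the dental mesenchyme were abundant, with Vim between 1525 and 2487 RPM and Msx1 between 91.2 and 305 RPM. Markers of other cell types were present too: summed enamel epithelium markers ranged from 2319 to 49560 RPM and summed odontoblast markers, Col1a1 left out as a general matrix gene, from 311 to 8149 RPM, while the 6 skeletal muscle markers summed to 1.80 RPM at most.

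The stretch before each start site was read to show which clock elements the members carry there. RefSeq sequence (GRCm38.p6) of the 250 bases upstream was held for 9 of the 10 members, in 13 windows, and Per2 was not in the table used. Both strands were searched for the E-box CACGTG, its variant CACGTT, the D-box (TTATGTAA or TTACGTAA) and the ROR element by its published degenerate form. Across all 32851 windows of this length, 6.02% held CACGTG, 3.85% held CACGTT, 0.931% held the D-box and 0.332% held the ROR element. Per3 had 2 D-box matches, starting 205 and 158 bases before its start site. CACGTG was found once in Cry1 and once at the first of the Per1 start sites, and CACGTT once each in Cry1, Cry2 and Nr1d1. The windows of Arntl, Clock, Nr1d2 and Dbp held none of the 4 letter patterns, which says only that these letters are not in this stretch. The windows below are those of Per3, the member that varied most between libraries, of Nr1d1, of Cry1, which carries 2 kinds of match, and of Arntl, the member that varied least. They are printed 5′ to 3′ with the matches in capitals, where AACGTG is CACGTT read on the other strand.
Per3 (chr4:151044666-151044915, minus strand): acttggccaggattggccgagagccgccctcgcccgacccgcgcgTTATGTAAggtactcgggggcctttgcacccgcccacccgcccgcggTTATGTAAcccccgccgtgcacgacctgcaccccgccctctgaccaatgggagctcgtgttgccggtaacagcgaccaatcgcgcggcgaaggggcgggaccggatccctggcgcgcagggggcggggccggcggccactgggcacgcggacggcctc
Nr1d1 (chr11:98775378-98775627, minus strand): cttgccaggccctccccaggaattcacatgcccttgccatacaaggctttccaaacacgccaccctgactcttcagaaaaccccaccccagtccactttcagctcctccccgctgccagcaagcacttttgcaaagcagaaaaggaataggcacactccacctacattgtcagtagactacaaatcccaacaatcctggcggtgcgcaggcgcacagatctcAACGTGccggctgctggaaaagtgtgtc
Cry1 (chr10:85185055-85185304, minus strand): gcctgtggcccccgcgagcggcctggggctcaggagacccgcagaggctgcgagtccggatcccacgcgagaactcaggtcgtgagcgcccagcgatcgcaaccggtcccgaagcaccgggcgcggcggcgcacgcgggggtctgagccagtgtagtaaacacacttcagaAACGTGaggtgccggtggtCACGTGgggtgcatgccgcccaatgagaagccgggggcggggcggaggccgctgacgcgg
Arntl (chr7:113207215-113207464, plus strand): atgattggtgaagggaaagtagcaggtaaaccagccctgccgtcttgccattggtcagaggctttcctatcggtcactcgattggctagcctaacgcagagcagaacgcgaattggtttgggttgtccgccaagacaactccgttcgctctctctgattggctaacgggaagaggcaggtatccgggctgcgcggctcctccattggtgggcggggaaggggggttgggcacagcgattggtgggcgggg

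Levels of different genes were compared per kilobase of annotated exon (union of GENCODE M21 exons, mm10), since RPM does not divide out length. On this scale Nr1d1 was the highest member, at 17.4 ± 3.71 RPM per kilobase (mean ± SD over the 6 libraries), followed by Dbp at 12.2 ± 4.13 and Nr1d2 at 10.6 ± 1.78. Per1 (6.09 ± 0.992) and Cry1 (5.20 ± 0.601) came next, then Cry2 (3.55 ± 0.544), Per3 (2.87 ± 1.10) and Clock (2.69 ± 0.428), all in RPM per kilobase. Arntl was at 1.73 ± 0.113 RPM per kilobase and Per2 was lowest at 1.42 ± 0.397. The spread separated these levels into tiers. The mean ± SD ranges did not overlap between Nr1d2 and Per1, between Cry1 and Cry2, or between Clock and Arntl. Neighbours within a tier overlapped in their mean ± SD ranges, though Nr1d1 was above Dbp in 6 of 6 libraries. Dbp was above Nr1d2 in 5 of 6 libraries, Per1 above Cry1 in 5, Cry2 above Per3 in 4 and Per3 above Clock in 3. The order rests on the annotated exon lengths, which the transcripts made in this tissue need not fill.

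Of the activators, Arntl was nearly level. It was at 13.1, 13.9 and 12.0 RPM in controls 1 to 3 and at 12.3, 14.1 and 12.7 RPM in mutants 1 to 3. The highest library was 1.18 times the lowest, the groups overlapped, and the coefficient of variation over the 6 libraries was 6.50%, close to the 5.23% that counting of 304 to 423 reads gives by itself. Only 4.07% of the 14444 genes tested varied less. Between genotypes Arntl differed by 0.01 on the log2(RPM + 1) scale used for all differences here (mutant minus control, 95% interval -0.35 to 0.36, limma with Benjamini-Hochberg over all genes tested, adjusted p = 1). Between litters it differed by -0.10 (litter 2 minus litter 1, interval -0.45 to 0.24, adjusted p = 0.7).

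Clock, which encodes the partner of BMAL1, was at 42.8, 40.6 and 27.1 RPM in the controls and at 36.5, 40.9 and 33.4 RPM in the mutants. Genotype groups overlapped, while both litter 2 libraries lay below all 4 of litter 1. The genotype difference was 0.03 (interval -0.44 to 0.49, adjusted p = 1), and the litter difference was -0.40 (SE 0.14, unadjusted p = 0.0276, adjusted p = 0.19; limma with Benjamini-Hochberg). Npas2, which encodes a paralogue of CLOCK, had the same 2 libraries lowest: 11.6, 7.07 and 1.48 RPM in controls 1 to 3 and 5.61, 9.28 and 4.69 RPM in mutants 1 to 3. Its litter difference was -1.28 (SE 0.39, unadjusted p = 0.016, adjusted p = 0.161 by limma with Benjamini-Hochberg), and without control 3 it was -0.53 (unadjusted p = 0.231).

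**Figure D1:**
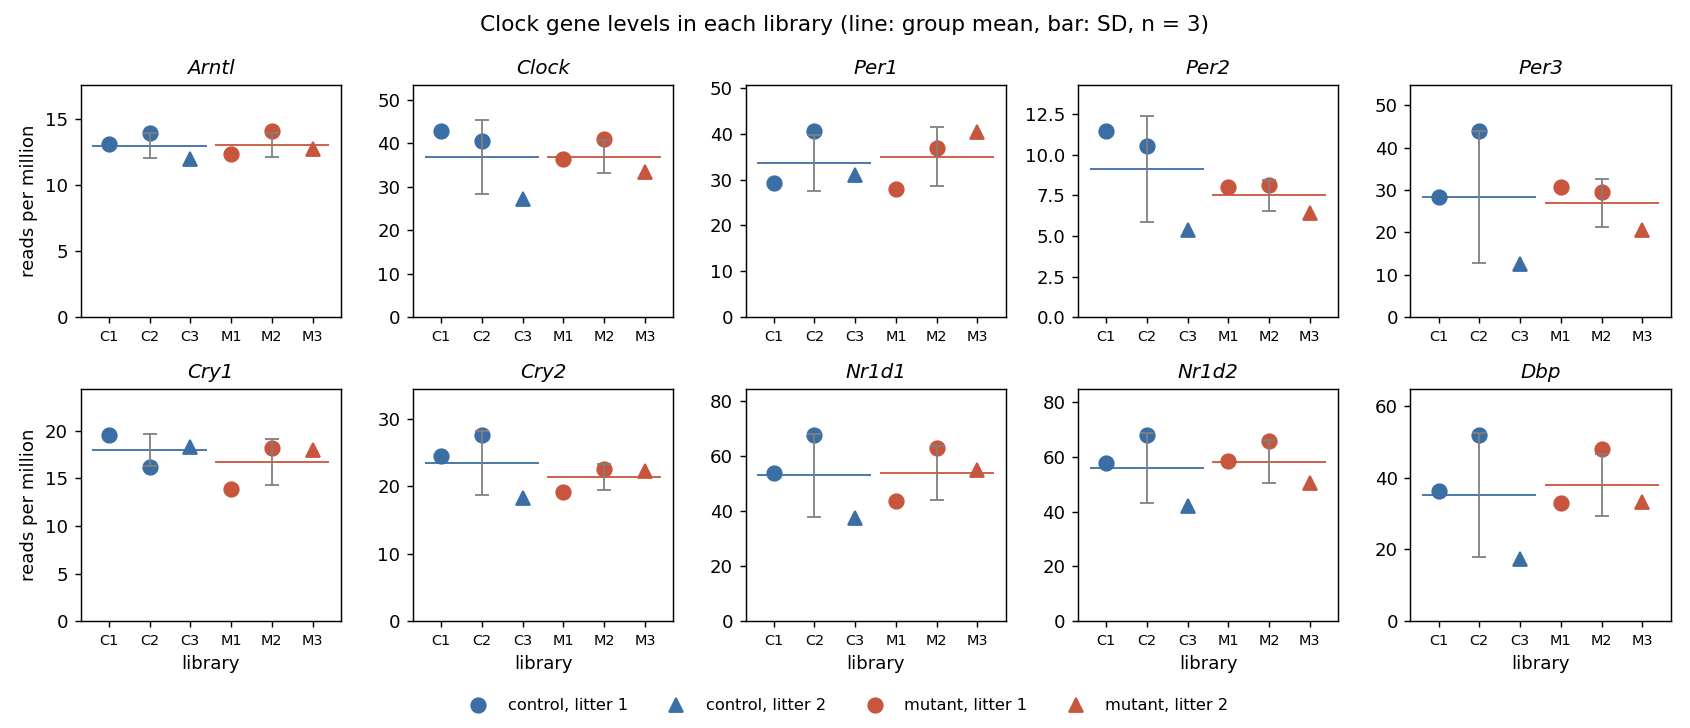
Level of each of the 10 clock genes in RPM (y axis, from 0) in control libraries C1 to C3 and mutant libraries M1 to M3 (x axis); circles are litter 1, triangles litter 2, horizontal lines the group means and bars the SD (n = 3). Control 3 is the lowest library for 8 of the 10 genes, and the genotype groups overlap for all 10.

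The 3 Period genes, which encode repressors of the CLOCK and BMAL1 pair, differed among themselves. Per3 varied most of all members: it was at 28.4, 43.8 and 12.6 RPM in controls 1 to 3 and at 30.7, 29.6 and 20.5 RPM in mutants 1 to 3, a 3.48-fold range. Both litter 2 libraries were below the other 4, with means of 33.1 ± 7.18 RPM in litter 1 (SD, n = 4) and 16.5 ± 5.55 RPM in litter 2 (n = 2). Per3 is also the member whose start-site window, printed above, holds the pair of D-box matches, and whether these bear on its level was not tested. Its litter difference of -0.98 (SE 0.25, unadjusted p = 0.00742) did not pass adjustment (adjusted p = 0.125, limma with Benjamini-Hochberg), and its genotype difference was 0.07 (interval -0.91 to 1.05). Per2 was at 11.5, 10.5 and 5.40 RPM in the controls and at 8.03, 8.12 and 6.41 RPM in the mutants, again with litter 2 below litter 1. Its litter difference was -0.60 (SE 0.19, unadjusted p = 0.0186, adjusted p = 0.168) and its genotype difference was -0.20 (interval -0.86 to 0.46). Per1, which also answers acutely to glucocorticoids and other stimuli, was at 29.3, 40.5 and 31.0 RPM in the controls and at 28.0, 36.8 and 40.3 RPM in the mutants. Neither genotype nor litter separated the Per1 libraries: control 2 and mutant 3, from different litters, were the highest pair. The differences of Per1 were 0.06 for genotype (interval -0.40 to 0.51) and 0.09 for litter (interval -0.40 to 0.57).

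The cryptochromes, which encode the partners of the PER proteins in repression, varied less. Cry1 was at 19.5, 16.2 and 18.3 RPM in controls 1 to 3 and at 13.9, 18.2 and 18.0 RPM in mutants 1 to 3. Its lowest library was mutant 1, so it did not follow the litters, and its litter difference was 0.10 (interval -0.30 to 0.51). Cry2 was at 24.5, 27.6 and 18.3 RPM in the controls and at 19.1, 22.6 and 22.3 RPM in the mutants, with control 3 lowest and control 2 highest. The litter difference of Cry2 was -0.19 (interval -0.63 to 0.24). Genotype differences were -0.11 for both genes, with intervals of -0.50 to 0.28 for Cry1 and -0.55 to 0.32 for Cry2.

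The REV-ERB genes, which encode the nuclear receptors that repress Arntl, were both lowest in control 3 and highest in control 2. Nr1d1 was at 54.0, 67.6 and 37.3 RPM in controls 1 to 3 and at 43.7, 63.1 and 54.9 RPM in mutants 1 to 3. Nr1d2 was at 57.7, 68.0 and 42.2 RPM in the controls and at 58.6, 66.0 and 50.5 RPM in the mutants. Only Nr1d2 had both litter 2 libraries below litter 1, with a litter difference of -0.43 (SE 0.14, unadjusted p = 0.0195, adjusted p = 0.17; limma with Benjamini-Hochberg). The Nr1d1 litter difference was -0.31 (interval -0.87 to 0.25). Genotype differences were 0.05 for Nr1d1 (interval -0.52 to 0.62) and 0.08 for Nr1d2 (interval -0.40 to 0.55). Arntl, their target, was no higher where they were lowest: control 3 held the lowest level of all 3 genes as deposited, though not of Arntl after median-of-ratios scaling.

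Nr1d1 needs a further reading, because it shares sequence with Thra, the thyroid hormone receptor alpha gene on the opposite strand. In mm10 their exons overlap over 263 bases (chr11:98768157-98768419), which is 8.55% of the Nr1d1 exon bases. The labels do not say whether strand was kept in the libraries or used in counting, so reads there cannot be assigned to 1 gene. Thra was at 279, 348 and 192 RPM in controls 1 to 3 and at 223, 352 and 300 RPM in mutants 1 to 3. Both genes were lowest in control 3, next lowest in mutant 1, and highest in control 2 and mutant 2. The ratio of Thra to Nr1d1 stayed between 5.09 and 5.58 in all 6 libraries, over a 1.84-fold range of Thra and a 1.81-fold range of Nr1d1. How much of the Nr1d1 value comes from Thra reads was not tested. Nr1d2, which has no such overlap, had the same lowest and highest libraries as Nr1d1, as did 9.26% of all genes. Its next lowest library was mutant 3 (50.5 RPM) and not mutant 1.

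The output regulator Dbp encodes a PAR bZIP factor, a class that binds D-boxes. It was at 36.4, 51.9 and 17.3 RPM in controls 1 to 3 and at 32.9, 48.1 and 33.3 RPM in mutants 1 to 3, a 3.01-fold range. Control 3 stood lowest, control 2 and mutant 2 highest, and the other 3 libraries lay close together. The litter difference of -0.77 (SE 0.29, unadjusted p = 0.0363, adjusted p = 0.211; limma with Benjamini-Hochberg) did not separate the litters fully, since mutant 3 lay above mutant 1 of litter 1. Litter means were 42.3 ± 9.11 RPM (SD, n = 4) and 25.3 ± 11.3 RPM (n = 2). The Dbp genotype difference was 0.22 (interval -0.67 to 1.11, adjusted p = 1). Dbp ends in 539 bases shared with exons of Sphk2 on the opposite strand (chr7:45709665-45710203), 18.0% of its exon bases. Sphk2 kept no steady ratio to Dbp: it was between 24.2 and 33.7 RPM, and its ratio to Dbp ran from 0.592 in control 2 to 1.49 in control 3.

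**Figure D2:**
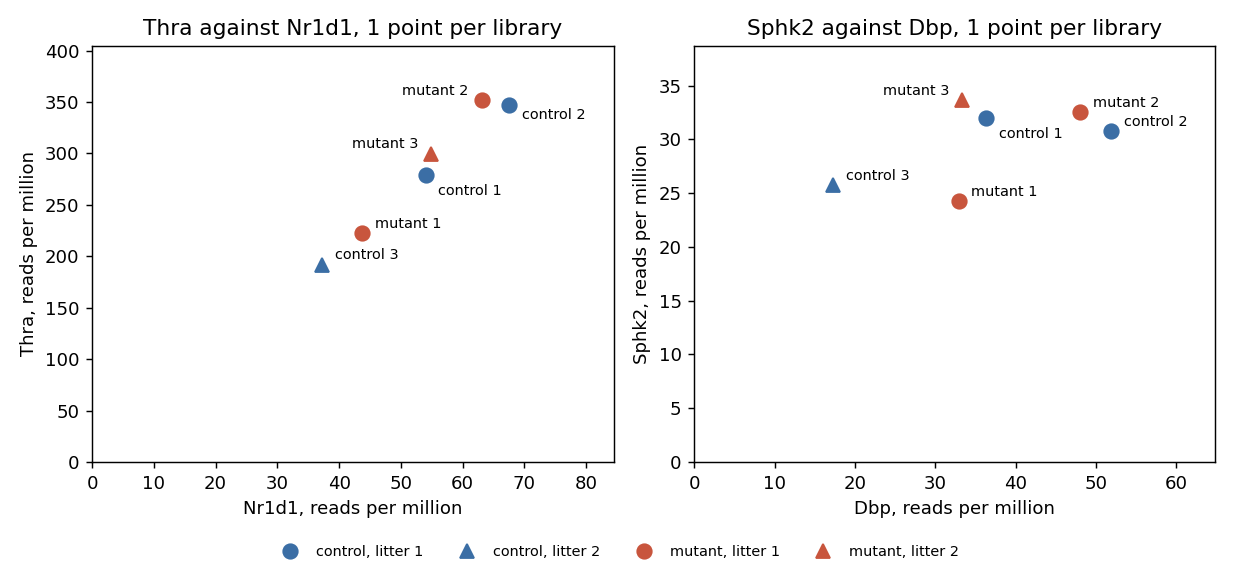
Thra against Nr1d1 (left) and Sphk2 against Dbp (right), both axes in RPM from 0 with 1 point per library; colour gives the genotype and shape the litter. The Thra points lie along a line of nearly constant ratio (5.09 to 5.58), while Sphk2 stays between 24.2 and 33.7 RPM as Dbp goes from 17.3 to 51.9 RPM.

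The other PAR bZIP genes had their extremes in the same libraries as Dbp. Tef was at 110, 135 and 73.8 RPM in controls 1 to 3 and at 106, 122 and 108 RPM in mutants 1 to 3. Hlf was at 47.7, 71.3 and 21.3 RPM in the controls and at 33.2, 54.7 and 34.9 RPM in the mutants. Control 3 was lowest and control 2 highest for both, as for Dbp. This held for 4 of the 33 tested clock genes outside the members, and for 9.26% of all genes. Litter differences were -0.85 for Hlf (unadjusted p = 0.04, adjusted p = 0.219) and -0.40 for Tef (unadjusted p = 0.0747, adjusted p = 0.281), by limma with Benjamini-Hochberg. Without control 3 they were -0.28 for Hlf (unadjusted p = 0.47) and -0.08 for Tef (unadjusted p = 0.722). Nfil3, which encodes a repressor that competes for the same D-box, stayed between 6.74 and 11.2 RPM and differed by -0.25 between litters (unadjusted p = 0.269), or by -0.06 without control 3.

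Set against all genes, no clock gene differed between genotypes beyond the spread of the libraries. At an adjusted p under 0.05, 0 of 10 members were called (0% of the 14444 genes tested, limma with Benjamini-Hochberg), and at an unadjusted p under 0.05 again 0 of 10 against 1.05% of all genes. Without control 3, where 1.65% of all genes were under 0.05, Per2 alone of the members was (log2 difference -0.50, unadjusted p = 0.0378, adjusted p = 1 by limma with Benjamini-Hochberg). Genotype groups overlapped for all 10 members, against 2.64% of genes without overlap. The 10 differences ran from -0.20 (Per2) to 0.22 (Dbp) with a median of 0.04, beside a median of -0.01 over all genes tested. The intervals of Per3 and Dbp, the widest, leave room for sizeable differences in either direction, so these data do not show that the genotypes are alike. All these intervals come from a fit without a litter term, so differences between litters add to their width. With litter as a block, the differences of Per3 and Dbp were still 0.07 and 0.22. In that fit 0 members had an unadjusted p under 0.05 (limma), against 2.02% of all genes.

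**Figure D3:**
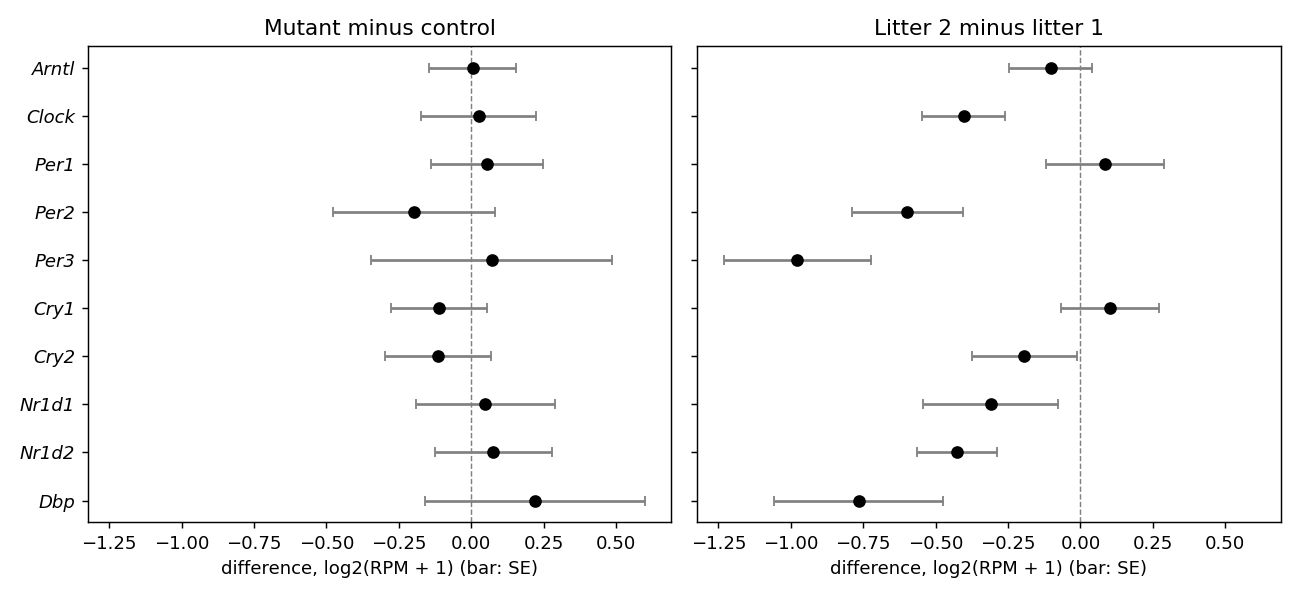
Difference of each member between genotypes (left, mutant minus control) and between litters (right, litter 2 minus litter 1) on the log2(RPM + 1) scale, with bars for the SE of the limma fit over 6 libraries. Genotype differences lie between -0.20 and 0.22, while litter differences reach -0.98 for Per3 and -0.77 for Dbp.

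Several members were lower in litter 2 than in litter 1, though none passed adjustment. Of the 10, 5 had an unadjusted p under 0.05 (Per2, Per3, Clock, Nr1d2 and Dbp), all lower in litter 2, where 13.7% of all genes were lower at this level, 7.21% were higher and 20.9% differed in either direction. At an adjusted p under 0.05, 0 of 10 members were called, against 0.872% of all genes. The median litter difference was -0.36 over the members and -0.03 over all genes tested. Without overlap, litter 2 lay below litter 1 for 4 members (Per2, Per3, Clock and Nr1d2), against 20.5% of all genes, and above it for 0 members, against 15% of all genes. The all-gene split itself moved with scaling: 1985 genes were lower and 1041 higher at an unadjusted p under 0.05 as deposited, and 2176 lower and 1810 higher after median-of-ratios scaling, with the same 5 members under 0.05.

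These counts depended on single libraries, for the members and for all genes. Control 3 was the lowest library for 8 of 10 members (31% of all genes), control 2 the highest for 6 (18.6%), and both held for 5 members, Per3, Cry2, Nr1d1, Nr1d2 and Dbp (9.26%). After median-of-ratios scaling control 3 was lowest for 7 members (23.3% of all genes) and control 2 highest for 7 (17.9%). Without control 3, the number of members at an unadjusted p under 0.05 in the litter comparison went from 5 to 0 while the share of all genes went from 20.9% to 9.66%, with litter 2 then a single mutant library assumed to vary like the rest. The Dbp litter difference shrank to -0.25 and that of Per3 to -0.54, that of Per2 to -0.29 and that of Clock to -0.20, that of Nr1d2 was -0.30, while those of Cry2 and Nr1d1 turned to 0.10 and 0.06. Without control 2 the number of members was 1 (Per3) against 12.1% of all genes, and without mutant 2 it was 2 (Per2 and Per3) against 14.2%. Without control 1 it was 4 (19.8% of all genes), without mutant 1 it was 6 (29.4%) and without mutant 3 it was 6 (16.7%).

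Several cell markers differed between litters too at an unadjusted p under 0.05, where 13.7% of all genes were lower in litter 2 and 7.21% higher. No marker of any list passed adjustment between litters (limma with Benjamini-Hochberg). Dspp, the defining odontoblast gene, was between 4032 and 6872 RPM in litter 1 but at 817 RPM in control 3 and 113 RPM in mutant 3, and the 4 odontoblast markers other than Col1a1 summed to 4879 to 8149 RPM in litter 1 and to 1307 and 311 RPM in litter 2. All 4 had an unadjusted p under 0.05, 3 of them lower in litter 2, while Col1a1, also a mesenchyme marker, did not. Summed erythroid markers were at 230 to 587 RPM in litter 1 and at 773 to 2522 RPM in litter 2, highest in control 3, and all 5 that were tested were higher in litter 2 at that level. Summed enamel markers were at 39090 and 20310 RPM in control 3 and mutant 3 and at 49560 RPM in mutant 1 of litter 1, against 2319 to 5273 RPM in the other 3 libraries. These 3 enamel-rich libraries were the 3 lowest for 5 of 10 members, Per2, Cry2, Arntl, Clock and Dbp (23.8% of all genes), and control 2, with the lowest enamel sum, was the highest for 6. After median-of-ratios scaling they were the 3 lowest for 0 of 10 members (11.1% of all genes), and after quantile normalization for 1, Clock (12%). No matched marker of any list was at 0 in all libraries. The macrophage and osteoclast sum was at 280 to 438 RPM in litter 1 and 245 to 305 RPM in litter 2, but its markers differed. Csf1r, the macrophage growth factor receptor gene, was at 125, 158 and 56.9 RPM in controls 1 to 3 and at 93.9, 186 and 88.6 RPM in mutants 1 to 3, with control 3 lowest and control 2 and mutant 2 highest, as for Dbp. Csf1r (-0.93, unadjusted p = 0.021) and Emr1 (-1.10, unadjusted p = 0.023) were the 2 of 6 under 0.05 between litters, while the osteoclast genes Acp5 and Mmp9 were highest in control 3, at 44.4 and 46.6 RPM. Of the 8 mesenchyme markers 2 were under 0.05, near the 20.9% of all genes, and they went opposite ways. Prrx1 was between 32.6 and 56.6 RPM in litter 1 and at 64.2 and 61.0 RPM in litter 2 (0.57, unadjusted p = 0.0276). Msx1 was at 218, 305 and 91.2 RPM in the controls and 174, 304 and 129 RPM in the mutants (litter difference -1.16, unadjusted p = 0.00574), with control 3 lowest and control 2 and mutant 2 highest. In tissue RNA fewer cells of a type cannot be told apart from less RNA per cell, and the part of these cell types in the clock gene differences was not tested.

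Within litters the sign of the genotype difference changed for most members. Mutants were below controls in litter 1 and above them in litter 2 for 9 of 10 members, Cry1 being the exception, where 49.6% of all genes did the same. The median over all genes was itself -0.08 in litter 1 and 0.12 in litter 2, and median-of-ratios scaling brought it to 0.01 and 0.00. After that scaling the reversal held for 7 of 10 members against 27.6% of all genes, and Arntl and Nr1d2 dropped out of it. As deposited, Dbp differed by -0.12 in litter 1 and 0.91 in litter 2, Per3 by -0.22 and 0.66, and Nr1d1 by -0.20 and 0.55. After median-of-ratios scaling the same pairs were -0.04 and 0.78 for Dbp, -0.13 and 0.53 for Per3, and -0.11 and 0.42 for Nr1d1. No member's litter by genotype term passed (0 of 10 at an unadjusted p under 0.05, against 5.06% of genes), the smallest p being 0.0588 for Dbp (difference 1.03, interval -0.05 to 2.12, adjusted p = 0.91, limma with Benjamini-Hochberg). Litter 2 holds 1 library per genotype, so the low control 3 and the litter cannot be told apart here.

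The clock's 2 arms were then set against each other across libraries. Over the 45 pairs of members, Pearson's r of log2(RPM + 1) was above 0 for 39 pairs and below 0 for 6, with a median of 0.74. All 6 negative pairs involved Cry1 or the pair of Per1 and Per2, and the lowest was Per3 with Cry1 at -0.40. By exact permutation 4 of the 45 pairs had an adjusted p under 0.05, each at 0.0469, and 0 did by Spearman's rho. They were Per3 with Nr1d2 (r = 0.96, the highest), Per2 with Clock (0.92), Dbp with Nr1d1, and Arntl with Dbp. Arntl, which runs opposite to Dbp and Nr1d1 over a day in adult tissues, was highest in the same libraries as they were. Its r with Dbp was 0.91 (exact permutation p = 0.00417, adjusted over the 45 pairs 0.0469; Spearman's rho 0.94, exact permutation p = 0.0167, adjusted 0.15). With Nr1d1 its r was 0.95 (exact permutation p = 0.00972, adjusted 0.0714; rho 0.89, exact p = 0.0333, adjusted 0.214). With Per3 it was 0.74 (exact permutation p = 0.0847, adjusted 0.166; rho 0.54, exact p = 0.297, adjusted 0.461). Without the 2 libraries farthest from the Arntl median, control 3 and mutant 2, these 3 values were 0.95, 0.95 and 0.67. Without control 2 and control 3, farthest from the Per3 median, Arntl with Per3 gave 0.21. Arntl's whole range was small, and its tie to Dbp depended on scaling: r was 0.54 after median-of-ratios scaling and 0.38 after quantile normalization.

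Dbp with Nr1d1 gave r = 0.94 (exact permutation p = 0.00278, adjusted 0.0469; rho 0.94, exact p = 0.0167, adjusted 0.15), and r stayed at 0.94 under both other scalings, where it no longer passed adjustment (exact permutation, adjusted p = 0.109 after median-of-ratios scaling and 0.125 after quantile normalization). Dbp with Per3 gave r = 0.92 (exact permutation p = 0.0111, adjusted 0.0714; rho 0.66, exact p = 0.175, adjusted 0.358). Without control 2 and control 3, farthest from the Dbp median, r was 0.80 with Nr1d1 but 0.38 with Per3, so the Dbp to Per3 value depended on those 2 libraries. Values over 4 libraries, as here, only describe those libraries, and for the same reason no correlation is given within litter 1 (4 libraries) or litter 2 (2). The permutations exchange all 6 libraries and take no account of the litters, so a shift shared by a litter enters these p-values as if its libraries were independent.

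Likeness over 6 libraries is common, which sets the scale for these values. With all genes ranked by r, it was still 0.01 at rank 8941 of 14443 for Dbp and 0.04 at rank 9409 for Arntl. Across genes, 1020 of 14443 (7.06%) had an r above 0.9 with Dbp, among them 4 of the other 9 members, and 1095 (7.58%) had one with Arntl, among them 2. The 5 genes most like Dbp were Gm17071, Syn2, St8sia4, Rab5a and Eif2ak2, at r = 0.99 to 1.00. Tef ranked 10 of 14443 (r = 0.99), Nr1d2 229 and Hlf 231 (both r = 0.96). Most like Arntl were Rab5b, Slc35f3, Dhx40, Synj2bp and Rnf130, at r = 0.99 to 1.00, while Nr1d1 ranked 346. These ranks describe the 6 libraries, which share their litters, and carry no test.

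**Figure D4:**
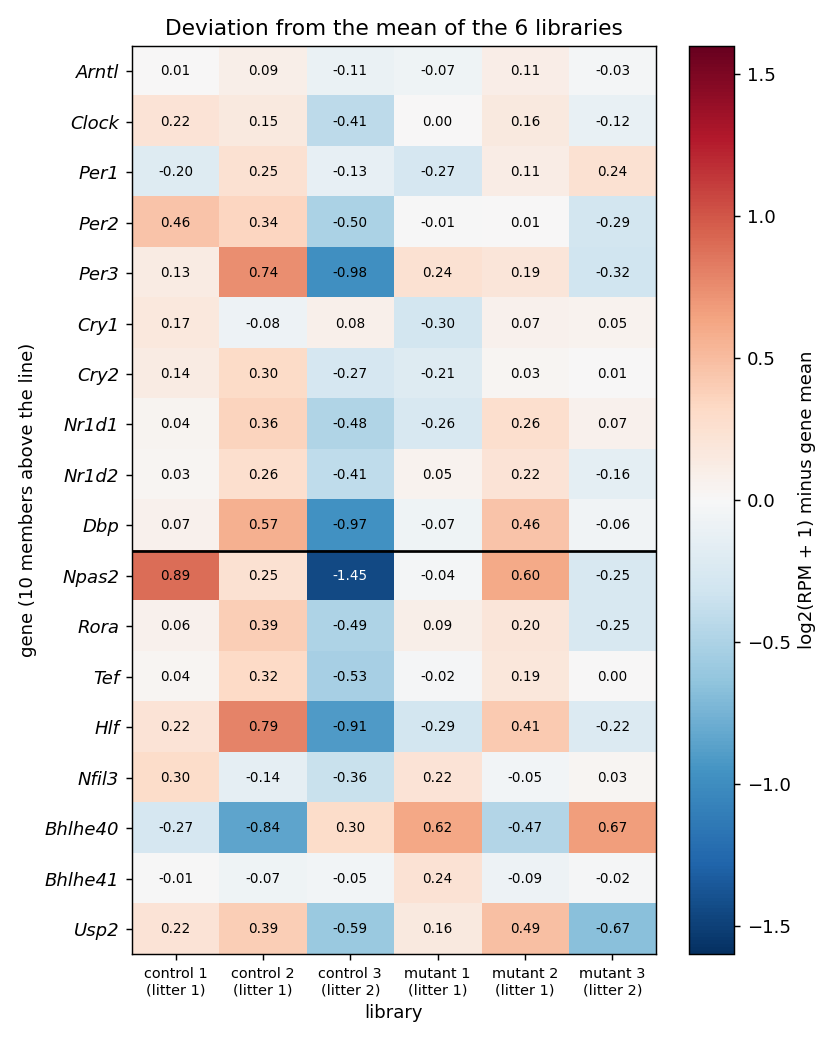
Deviation of log2(RPM + 1) from the gene's mean over the 6 libraries (colour and printed value) for the 10 members above the line and 8 other clock genes below it, with libraries as columns. Control 3 holds the lowest value in most rows, with -0.98 for Per3, -0.97 for Dbp and -1.45 for Npas2, and Arntl stays within 0.11 of its mean. Over all 33 other clock genes tested, not only the 8 drawn, control 3 was lowest for 10, against 31% of all genes.

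Of the other genes of the clock, 37 are reported here, listed by role, and 33 of them passed the mean of 1 RPM needed for testing. Between genotypes 0 of 33 were called and 0 had an unadjusted p under 0.05, with differences from -0.64 to 0.54. Between litters 0 of 33 were called (limma with Benjamini-Hochberg) and 6 had an unadjusted p under 0.05, all 6 lower in litter 2, beside 13.7% of all genes lower and 20.9% in either direction, a share near this count. Without control 3 only Usp2 of the 6 stayed under 0.05. The median litter difference of the 33 was 0.01, beside the -0.03 of all genes, with 17 genes above 0 and 16 below. Control 3 was the lowest library for 10 of the 33 (31% of all genes), and control 2 was also the highest for 4 (9.26%). The litter by genotype term was 1.48 for Npas2 and -2.35 for Cdkn1a, which was at 317 RPM in control 3 and between 67.8 and 101 RPM elsewhere.

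Rora, which encodes a nuclear receptor that activates at the ROR element, was between 23.7 and 30.0 RPM in litter 1 and at 15.9 and 18.8 RPM in litter 2 (log2 difference -0.56, unadjusted p = 0.0112, adjusted p = 0.146). Its paralogue Rorb was too low to be tested.

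Of the 9 genes reported here whose products modify PER and CRY proteins, 1 had an unadjusted p under 0.05 between litters, beside 20.9% of all genes. Usp2, a clock-controlled ubiquitin protease gene, was at 14.1, 16.1 and 7.63 RPM in the controls and at 13.5, 17.2 and 7.12 RPM in the mutants, with litter 2 at about the same level in both genotypes (-0.95, SE 0.16, unadjusted p = 0.000898, adjusted p = 0.061, limma with Benjamini-Hochberg). Usp2 passed adjustment without mutant 1 (0.0491) and with litter as the only term (0.024). Kmt2a, a histone methyltransferase gene listed under an older name, differed by -0.52 (unadjusted p = 0.00717) and Avpr1a, a vasopressin receptor gene, by -0.70 (unadjusted p = 0.0236).

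The Dec repressors compete with the activators for E-boxes. Bhlhe40 was at 14.4, 9.37 and 21.9 RPM in controls 1 to 3 and at 27.6, 12.4 and 28.6 RPM in mutants 1 to 3. Its 2 lowest libraries, control 2 and mutant 2, were the 2 highest for Dbp. The litter difference was 0.73 (unadjusted p = 0.0638, adjusted p = 0.261) and the genotype difference 0.54 (unadjusted p = 0.209), by limma. Bhlhe41 stayed between 5.06 and 6.57 RPM. Ciart, found under an older name, was at most 0.675 RPM and was not tested.

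Genes that answer to signals able to set the clock were read beside it. Of 10 tested glucocorticoid response genes, 5 had an unadjusted p under 0.05 between litters, 3 lower and 2 higher in litter 2, and 0 between genotypes. Of all genes tested, 13.7% were lower and 7.21% higher between litters at this level. Pdk4, which encodes a kinase that restrains glucose oxidation, was between 45.9 and 81.6 RPM in litter 1 and at 16.2 and 17.9 RPM in litter 2. It fell by 1.83 on the log2 scale (SE 0.24, adjusted p = 0.042, limma with Benjamini-Hochberg), a call lost without control 3 (0.195), mutant 2 (0.188) or mutant 3 (0.139), where the difference was still -1.81, -1.78 and -1.86, and without the low-value filter, after median-of-ratios scaling or quantile normalization, and with voom (0.0573 to 0.0806). Klf9, itself a glucocorticoid-induced factor, differed by -0.62 (unadjusted p = 0.0064, adjusted p = 0.118), while Mt2, a metallothionein, differed by 1.46 (unadjusted p = 0.00519, adjusted p = 0.11). The list thus did not move in 1 direction.

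Of 8 temperature response genes, 2 had an unadjusted p under 0.05 between litters, beside 20.9% of all genes in either direction and 7.21% higher. Both were heat shock genes and higher in litter 2, Hsph1 by 0.54 (adjusted p = 0.149, and 0.34 without control 3) and Hspa8 by 0.47 (adjusted p = 0.151, limma with Benjamini-Hochberg). Hspa1b was the gene of this list under 0.05 between genotypes, at 24.9, 17.8 and 21.2 RPM in the controls and 36.3, 23.2 and 51.0 RPM in the mutants (0.71, unadjusted p = 0.0408, adjusted p = 1), beside 1.05% of all genes at this level. Leaving out 1 library gave 0.44 (without mutant 3, unadjusted p = 0.122) to 1.00 (without mutant 2). It shares most of its sequence with Hspa1a, so its counts are uncertain. Of 11 tested immediate early genes, 1 was under 0.05 between litters, Egr3 at -1.16 (adjusted p = 0.133), and 0 between genotypes.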

How the data were processed

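Polyadenylated RNA from 3 control and 3 mutant libraries was read on an Illumina instrument, as stated per the labels' protocols. TopHat2 and the mouse build mm10 are named in the submitters' processing notes, and the counting program, its strand setting and its normalization are not given in the sources used here. The authors deposited 1 table of log2 values titled as normalized RPKM. In it, 2 to the power of the value was a whole multiple of 1 step per library (within 0.05 of a read for 99.96% or more of the values of each library), the same for genes of any length. The deposited log2 values were therefore treated as log2 RPM, and reads were recovered by dividing by the step. A gene without reads is listed at the value of 0.9 read and was set to 0.

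Genes that averaged 1 RPM or more over the libraries were tested with limma 3.58.1 in R 4.3.3 (lmFit, eBayes with trend) on log2(RPM + 1), two-sided, with Benjamini-Hochberg adjustment over all genes tested. Genotype was fitted without covariate, litter with genotype as covariate, and the litter by genotype term with both. Exon lengths and overlaps came from GENCODE M21 and promoter windows from RefSeq (GRCm38.p6). Intervals are 95% limits of the limma fit. Named were the 10 members, genes of the clock lists with an unadjusted p under 0.05 in either comparison, 8 clock genes in any case, and up to 3 genes of each signal list. Of the genes covered by this rule, 2 are not reported here. The members and lists were chosen with earlier results of these data known. Alternatives were other pseudocounts, filters and scalings, no trend, voom on the recovered reads, litter or replicate blocks, litter 1 alone, and each library left out. The scripts were tested on simulated data.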

Additional observations from a re-analysis of the deposited data

Results flagged for a closer look

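For 3 of the 27 named genes, Per2, Cry2 and Hsph1, every mutant library lay on one side of the controls of its litter in litter 1 and on the other side in litter 2, where 18.2% of all genes tested did so. The difference between litters in the mutant minus control value was 0.61 for Per2 and 0.58 for Cry2, each with mutants lower in litter 1 and higher in litter 2. For Hsph1 it was -0.405, with mutants higher in litter 1 and lower in litter 2. For Npas2, whose litter 1 mutants and controls overlapped, the litter by genotype term was 1.48 (litter 1 -0.29, litter 2 1.197) and had an unadjusted p under 0.05. All 4 genes had an adjusted p of 0.91 for the litter by genotype term (limma, Benjamini-Hochberg), and litter 2 holds 1 library per genotype.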

How the results depend on the processing

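No member passed an adjusted p under 0.05 in any comparison under any alternative run. The 152 genes at an unadjusted p under 0.05 between genotypes became 344 without the filter, 292 with litter as a block, 524 with the replicate block, 316 in litter 1 alone and 68 to 319 when each library was left out. Adjusted genotype calls were 0, and 1 without control 1. Same-numbered libraries did not deviate together in every pair (r = -0.03, 0.75 and 0.50), so the numbers were not taken as pairs, and the replicate block gave 0 adjusted calls. The 126 adjusted litter calls became 2 without the filter, 0 with median-of-ratios scaling, 4 with quantile normalization, 0 with voom, 458 without the genotype term and 0 to 371 when each library was left out. The 3026 unadjusted litter genes became 1396 to 4245. In litter 1 alone the genotype difference turned negative for Per1 (-0.10), Per3 (-0.22), Arntl (-0.033), Clock (-0.11), Nr1d1 (-0.20), Nr1d2 (-0.011) and Dbp (-0.12). Leaving out each library, genotype differences ran from -0.051 to 0.20 for Per1, -0.50 to -0.02 for Per2, -0.40 to 0.46 for Per3, -0.18 to 0.0091 for Cry1, -0.28 to 0.0082 for Cry2, -0.048 to 0.053 for Arntl, -0.18 to 0.14 for Clock, -0.18 to 0.24 for Nr1d1, -0.11 to 0.23 for Nr1d2 and -0.21 to 0.56 for Dbp. Litter differences ran from -0.15 to 0.32 for Per1, -0.48 to 0.10 for Cry2, -0.68 to 0.063 for Nr1d1, -0.90 to -0.29 for Per2, -1.42 to -0.54 for Per3, -0.60 to -0.20 for Clock, -0.56 to -0.30 for Nr1d2, -1.28 to -0.25 for Dbp, -2.02 to -0.53 for Npas2, -1.41 to -0.28 for Hlf, -0.71 to -0.08 for Tef and -0.11 to 0.023 for Bhlhe41, which was 0.076 under quantile normalization. Under median-of-ratios scaling and quantile normalization, the litter by genotype terms were -0.083 and -0.024 for Cry1 and -0.089 and -0.055 for Arntl, while the median over all genes went from 0.19 to -0.01 and 0.02. The correlation of Arntl with Dbp became 0.54 and 0.38, and that of Dbp with Nr1d1 stayed at 0.94 and 0.94 but missed the adjusted threshold (0.109 and 0.125). Leaving out each library gave 0.88 to 0.97 and 0.88 to 0.99. The cause of these shifts was not tested. The patterns by library under other scalings were chosen after seeing the data.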
